A study of Rattus norvegicus with 6 samples.

Results

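The genes described here are 47 genes of the skeletal muscle fibre, chosen by name: the contractile proteins of the sarcomere, the calcium handling proteins, the enzymes of muscle energy supply and 2 transcription factors of muscle formation. All 47 were found among the 35071 gene names on a rat oligonucleotide array, through 69 probes. Of the 47, 7 mark fast fibres (Tnnt3, Tnni2, Tnnc2, Myh4, Atp2a1, Actn3 and Pvalb) and 6 mark slow fibres (Tnnt1, Tnni1, Tnnc1, Myh7, Myl2 and Myl3), and the others are shared by fibre types or were not assigned.

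The arrays measured RNA of synovial tissue, the lining of the joint, from the hind ankles of male rats aged 8 weeks with adjuvant arthritis. All rats, controls included, received 0.1 ml of Freund's complete adjuvant (i.p.) each day for 18 days. The arthritis group (AA) then stands for rats given saline and the triptolide group (TP) for rats given triptolide at 0.4 mg/kg, a diterpenoid of the vine Tripterygium wilfordii, each daily for 14 days. There were 3 arrays per group, and no healthy group was analysed here. Strain is not given in the labels, and neither is whether a replicate is 1 animal or a pool. The p-values below therefore reflect how far these samples scatter, and some of that scatter may be technical.

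Synovial tissue holds no muscle fibres of its own, while muscles and their tendons lie close to the joint. A fibre contracts when calcium released from the sarcoplasmic reticulum binds troponin, a complex of a calcium-binding subunit (C), an inhibitory subunit (I) and a tropomyosin-binding subunit (T), which frees actin for myosin. Fast and slow fibres build this machinery from different genes of the same families, so each troponin subunit and each myosin has a fast and a slow form. A muscle's mix of fibres can be read from the balance between the forms.

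The probes of the paired fast and slow genes are given first, because the comparison below rests on telling these paralogs apart. Each probe has 60 bases, of which the first 45 are shown for Tnni2 and Tnnc1. Positions are on rat build rn4 as the files give them. Exons and UTRs of build rn4 were not analysed here. A position longer than the probe is given where the files span a gap. Capitals mark the run of 27 bases that the probes of Myh7 and Myh6 share.
Tnnt3, fast troponin T, chr1:202758663-202758722, plus strand: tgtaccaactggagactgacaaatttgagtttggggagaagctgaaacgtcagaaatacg
Tnnt1, slow troponin T, chr1:68043195-68043354, plus strand: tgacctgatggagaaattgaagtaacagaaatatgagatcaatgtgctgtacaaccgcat
Tnni2, fast troponin I, chr1:202690056-202690115, plus strand: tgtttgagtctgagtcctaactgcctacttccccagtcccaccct
Tnni1, slow troponin I, chr13:48840073-48840132, plus strand: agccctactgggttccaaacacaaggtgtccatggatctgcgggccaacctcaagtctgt
Tnnc2, fast troponin C, chr3:155807970-155808029, minus strand: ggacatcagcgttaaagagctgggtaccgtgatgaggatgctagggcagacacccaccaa
Tnnc1, slow troponin C, chr16:6642305-6642364, plus strand: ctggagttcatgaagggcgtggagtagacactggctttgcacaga
Myh2, fast myosin heavy chain, chr10:53889243-53889302, plus strand: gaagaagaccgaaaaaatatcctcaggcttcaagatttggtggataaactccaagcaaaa
Myh7, slow myosin heavy chain, chr15:33073020-33073645, minus strand: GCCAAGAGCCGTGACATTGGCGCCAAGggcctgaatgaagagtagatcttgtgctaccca
Myh6, a myosin heavy chain of heart that is not among the 47, chr15:33044576-33044983, minus strand: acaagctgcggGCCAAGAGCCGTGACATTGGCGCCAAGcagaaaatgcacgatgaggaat

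The longest run of identical bases was 8 between the Tnnt3 and Tnnt1 probes, 6 between the Tnni2 and Tnni1 probes, and 6 between the Tnnc2 and Tnnc1 probes. Among the myosin heavy chains it was 9 for Myh2 and Myh4, 7 for Myh1 and Myh2, and 5 for Myh2 and Myh7. The probes of the fast and slow forms thus had little sequence in common with each other. They were not compared with the RNA of the other form, so binding across paralogs was not tested. The signal of the Myh7 probe is less certain, since its shared run of 27 bases could also bind Myh6 RNA.

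Each level below is the log2 intensity of a probe minus the log2 75th percentile of its array, so that 0 is the 75th percentile of that array's probes. Levels of different probes cannot be set against each other, while differences between arrays can. A gene with several probes is given by its brightest tested one. Between 25850 and 28249 of 43379 spots per array were well above background, the scanner software's call that a spot exceeds its local background. Arthritis 1 to 3 and triptolide 1 shared slide 1, and triptolide 2 and 3 lay on slide 2, so slide and group are largely confounded. The precision is limited by the number of arrays, 3 in each group.

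Muscle RNA was not spread evenly over the arrays. All 47 genes were highest on 1 array, arthritis 2, a saline control, where 18.9% of the 25777 tested probes had their highest value. For 46 of the 47 genes the level on arthritis 2 was at least 2-fold above every other array (4.02% of tested probes), the exception being Myom2, an M-band protein, at 0.69 on the log2 scale above the next array. The median gap between arthritis 2 and the next array was 5.34 on the log2 scale, or 40.5-fold, and the widest was 8.10, for Actn3. These are single arrays, so the gap carries no test. In whole tissue, more muscle cells and more RNA per muscle cell cannot be told apart.

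The other arrays fell into an order below it. The number of the 47 genes well above background was 24 on arthritis 1, 47 on arthritis 2, 25 on arthritis 3, 42 on triptolide 1, 31 on triptolide 2 and 46 on triptolide 3. Triptolide 1 was the next highest array for 20 genes and triptolide 3 for 19. Triptolide 2 was next for 6 (Casq2, Ldb3, Mybph, Myom1, Myom2 and Sgca) and arthritis 1 for 2 (Cav3 and Jph1). On each of the 6 arrays 10 of 10 synovial fibroblast markers and 8 of 8 macrophage markers were well above background. Of all non-control spots 59.6% to 65.1% were so. The level of the fibroblast marker Prg4, named after its values were seen, was lower on arthritis 2 (4.27) and triptolide 2 (3.52) than on the others (6.55 to 7.37). Not all of the 10 fibroblast markers shared this order, and Col1a1 and Col1a2 were lowest on triptolide 3.

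**Figure D1:**
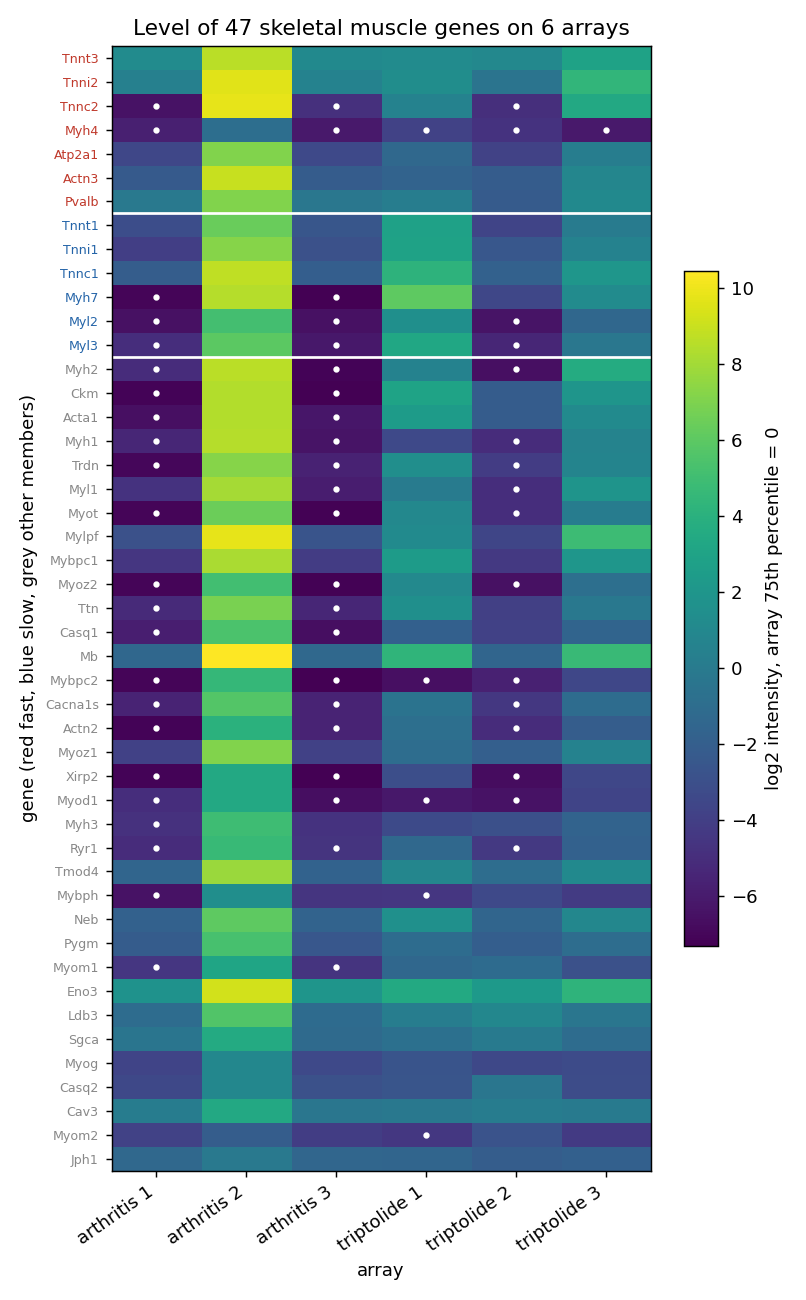
Heat map of the log2 level (colour, array 75th percentile = 0) of the 47 genes (rows, fast in red, slow in blue, others in grey) on the 6 arrays (columns); a white dot marks a value not well above background. Arthritis 2 is the brightest column in every row, triptolide 1 and triptolide 3 come next in most, and arthritis 1 and arthritis 3 are darkest and hold most of the dots.

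The fast troponins showed this pattern. Tnnt3, fast troponin T, stood at 1.23, 8.61 and 1.12 on arthritis 1 to 3 and at 1.25, 0.97 and 2.90 on triptolide 1 to 3. Tnni2, fast troponin I, stood at 0.42, 9.66 and 0.58 in arthritis and at 1.41, -0.49 and 4.36 with triptolide. Tnnc2, fast troponin C, was not well above background on arthritis 1, arthritis 3 and triptolide 2 (-6.44, -4.89 and -4.93), and stood at 9.75 on arthritis 2, 0.54 on triptolide 1 and 3.37 on triptolide 3. In all 3 genes arthritis 2 was highest and triptolide 3 next, and the groups overlapped, with triptolide 2 among the low arrays.

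The group differences of the fast troponins were small against this spread. Triptolide minus arthritis was -1.95 (SE 2.04) for Tnnt3, -1.80 (SE 2.69) for Tnni2 and 0.19 (SE 4.55) for Tnnc2 on the log2 scale. By limma across all probes their adjusted p-values were 0.994, 0.994 and 0.999.

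The remaining fast members are a calcium pump, a Z-disc protein, a calcium buffer and a myosin. Atp2a1, the calcium pump of the fast fibre's sarcoplasmic reticulum, stood at -3.51, 7.11 and -3.42 in arthritis and at -1.29, -3.84 and 0.20 with triptolide. Actn3, the alpha-actinin of fast fibres, stood at -2.31, 8.93 and -2.16 in arthritis and at -1.65, -2.15 and 0.83 with triptolide. Pvalb, parvalbumin, the calcium buffer that speeds relaxation, stood at -0.15, 7.09 and -0.25 in arthritis and at 0.24, -2.21 and 1.09 with triptolide. Each again had arthritis 2 highest and triptolide 3 next. The group differences were -1.70 (SE 2.97) for Atp2a1, -2.48 (SE 3.06) for Actn3 and -2.53 (SE 2.10) for Pvalb, each with an adjusted p of 0.994 by limma.

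Myh4, the myosin heavy chain of the fastest (IIb) fibres of rodents, departed from them. Its 1 probe was well above background on arthritis 2 alone, at -0.93, and stood at -5.79 and -6.09 on arthritis 1 and 3 and at -3.84, -4.72 and -6.09 on triptolide 1 to 3, none of these 5 well above background. It was not tested. By means the arthritis group was 1.14-fold higher, through arthritis 2, the 1 of its 3 arrays measured. This figure replaces a triptolide value by the dimmest signal called well above background on its array, wherever that signal is the higher one. The values of arthritis 1 and 3 were kept as read, so the figure is not a strict lower bound.

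The slow members shared the peak on arthritis 2 but not the next array. Tnnt1, slow troponin T, stood at -3.09, 6.37 and -2.58 in arthritis and at 2.83, -3.67 and 0.06 with triptolide. Tnni1, slow troponin I, stood at -4.05, 7.21 and -2.91 in arthritis and at 2.89, -2.53 and 0.54 with triptolide. Tnnc1, the troponin C of slow fibres and heart, stood at -2.07, 8.75 and -2.003 in arthritis and at 4.14, -1.81 and 2.04 with triptolide. For these 3 genes triptolide 1 was the next highest array, above triptolide 3.

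Slow myosin and its light chains showed the same order, with a wider step from triptolide 1 to triptolide 3 than the slow troponins. Myh7, the slow (beta) myosin heavy chain, stood at 8.48 on arthritis 2 and at 6.04, -3.50 and 1.22 on triptolide 1 to 3, and was not well above background on arthritis 1 and 3 (-7.06 and -7.28). Myl2, its regulatory light chain, stood at 5.16 on arthritis 2, 1.55 on triptolide 1 and -1.37 on triptolide 3, and was not well above background on arthritis 1, arthritis 3 and triptolide 2 (-6.49, -6.54 and -6.39). Myl3, its essential light chain, stood at 6.004, 3.27 and -0.31 on those same 3 arrays and was likewise not well above background on the others (-4.99, -6.17 and -5.43). The groups overlapped for all 6 slow members, since arthritis held both the highest and the lowest value of each gene but Tnnt1, whose lowest value was on triptolide 2.

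The group differences of the slow members lay near or above 0. They were -0.50 (SE 2.88) for Tnnt1, 0.22 (SE 3.12) for Tnni1 and -0.10 (SE 3.19) for Tnnc1, and 3.20 (SE 4.71) for Myh7, 0.55 (SE 3.62) for Myl2 and 0.90 (SE 3.69) for Myl3. The adjusted p by limma was between 0.994 and 0.999 for each of the 6. Myh6 moved with Myh7, at 7.97 on arthritis 2, 5.51 on triptolide 1 and 0.67 on triptolide 3, and the 2 signals cannot be told apart on the shared run. Of 6 heart muscle markers, Myh6 included, Nppa and Mybpc3 were not well above background on any array. Tnnt2, the troponin T of heart and of immature skeletal muscle, was well above background on all 6 and highest on arthritis 2, at 2.14. Tnni3, cardiac troponin I, was well above background on arthritis 2, arthritis 3 and triptolide 3 (-3.01, -4.44 and -3.67), and Myl7, an atrial light chain, on arthritis 3 and triptolide 3 (-4.72 and -4.59).

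**Figure D2:**
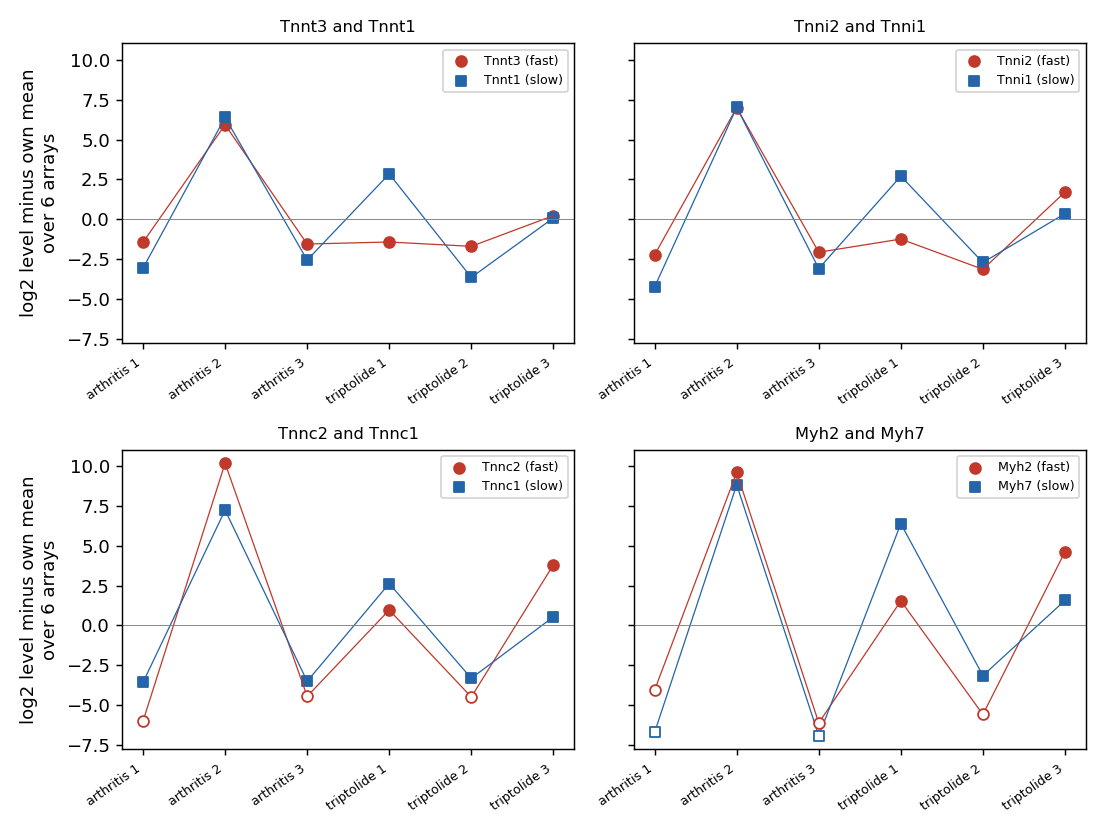
Log2 level of 4 fast and slow gene pairs on each array after subtracting each gene's own mean over the 6 arrays (vertical axis); red circles are the fast form, blue squares the slow form, and open symbols are not well above background. On triptolide 1 the slow form lies above the fast form in each panel, and on arthritis 2 both are at their highest. On triptolide 3 the fast form lies above the slow form in each panel, though only narrowly for Tnnt3. Myh2 is not in the set of fast members, and Myh4, which is, is not drawn.

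The balance of fast and slow forms differed between the 2 triptolide arrays that held the most muscle signal. All 6 slow members were higher on triptolide 1 than on triptolide 3, by 2.09 to 4.82 on the log2 scale (median 2.85), whereas 6 of the 7 fast members were higher on triptolide 3, by 0.85 to 2.95. For slow myosin Myh7 the difference was 28.2-fold towards triptolide 1, and for Tnni1, Tnnt1 and Tnnc1 it was 5.10-fold, 6.80-fold and 4.27-fold in the same direction. For Tnni2 and Tnnc2 it was 7.74-fold and 7.13-fold towards triptolide 3, for Actn3 5.57-fold and for Tnnt3 3.15-fold. The 7th fast member, Myh4, was not well above background on either array. Over all tested probes 45.9% were higher on triptolide 1 and 54.1% on triptolide 3, and 2.05% and 2.28% were so by at least 2-fold. This compares 1 array with 1 array, on different slides, and carries no test. The counts were the same under normexp, quantile and median scaling and under normexp with quantile normalization.

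Over the 47 genes 25 were higher on triptolide 1 and 22 on triptolide 3, and 13 were at least 2-fold higher in each direction. The 13 towards triptolide 3 held further genes of fast fibres. Myh1, the heavy chain of IIx fibres, was 15.8-fold higher there, and Mylpf, the fast regulatory light chain (now named Myl11), was 13.2-fold higher. Myh2, the heavy chain of IIa fibres, differed by 8.47-fold and Myl1, the fast essential light chain, by 3.55-fold. Towards triptolide 1 stood Myoz2, a Z-disc protein of slow fibres and heart, by 3.76-fold, and Ttn, the sarcomere spring titin, by 3.22-fold. The 13 in that direction also held Myom1 (2.89-fold), Acta1 (2.45-fold), Actn2 (2.43-fold) and Ckm (2.02-fold). The fast member Myh4 was there too (4.76-fold), on values not well above background. Other members differed little, among them Mybpc1 (1.38-fold), Casq1 (1.19-fold) and Pygm (1.08-fold). The assignment of Myh1, Mylpf, Myh2, Myl1 and Myoz2 to fibre types is background and was not part of the 2 sets compared above.

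**Figure D3:**
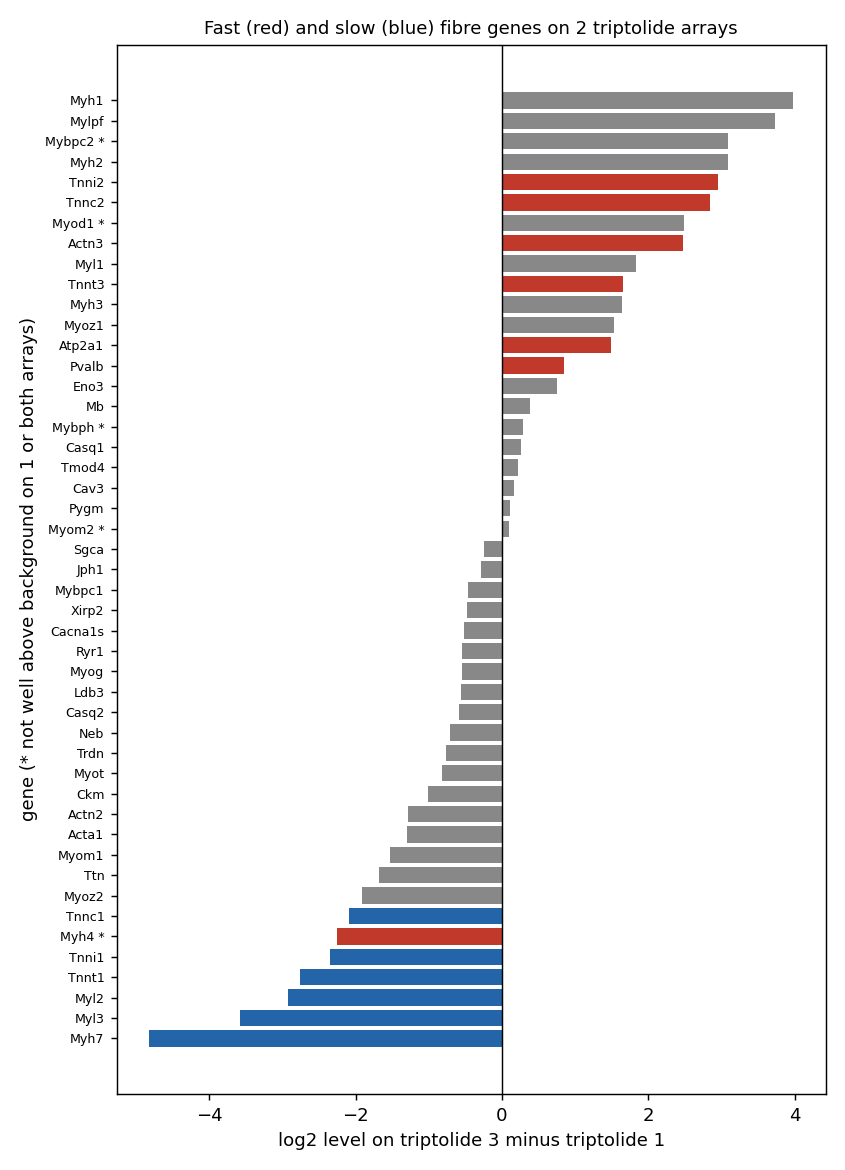
Log2 level on triptolide 3 minus triptolide 1 (horizontal axis) for each of the 47 genes (bars, ordered by value; fast members red, slow members blue, others grey); an asterisk marks a gene not well above background on 1 or both arrays. The 6 slow members lie at the negative end, from -2.09 to -4.82, and 6 of the 7 fast members lie above 0, with Myh4 the exception.

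Arthritis 2 was high in both forms. Its excess over triptolide 1 had a median of 8.33 on the log2 scale for the fast members without Myh4 and of 3.58 for the slow members. Over triptolide 3 the excess had a median of 6.19 for the fast and 6.60 for the slow members. Arthritis 2 therefore stood above triptolide 3 by nearly equal steps in both sets and above triptolide 1 by a larger step in the fast set.

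As 1 number per array, the mean of the fast members minus the mean of the slow members was taken after centring each gene on its own mean. It was 1.77, -0.31 and 1.94 on arthritis 1 to 3 (1.13 ± 1.25, SD, n = 3) and -4.42, 0.92 and 0.10 on triptolide 1 to 3 (-1.13 ± 2.88, SD, n = 3). Triptolide 1 alone was far below 0, and the groups overlapped. The difference between groups was -2.27, and -2.42 without Myh4. It was -0.62 without triptolide 1, -5.55 within slide 1, -1.34 with normexp background correction and -1.35 with normexp and quantile normalization. Values of arthritis 1, arthritis 3 and triptolide 2 rest partly on probes not well above background. On 3 arrays every probe used was well above background once Myh4 was left out. With each gene centred anew on its mean over those 3, the value was 1.56 on arthritis 2, -3.35 on triptolide 1 and 1.79 on triptolide 3. These values sum to 0 by construction. Only their differences between arrays can be read, and they are not on the scale of the values over all arrays.

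The other sarcomeric myosins lie in 1 cluster on chromosome 10, where the probes of Myh3, Myh2, Myh1 and Myh4 follow each other on the plus strand. Myh1 stood at 8.44 on arthritis 2, -3.37 on triptolide 1 and 0.61 on triptolide 3, and was not well above background on arthritis 1, arthritis 3 and triptolide 2 (-5.41, -6.36 and -5.06). Myh2 stood at 8.61, 0.54 and 3.62 on those 3 arrays, and was not well above background on the others (-5.06, -7.12 and -6.59). Both were thus read on the 3 arrays richest in muscle signal and on no other. Myh3, the embryonic heavy chain that is re-expressed in regenerating fibres, stood at 4.96 and -4.70 on arthritis 2 and 3 and at -3.31, -2.96 and -1.67 on triptolide 1 to 3, and was not well above background on arthritis 1 (-4.82).

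Genes shared by all fibres had wide ranges. Acta1, skeletal alpha-actin, stood at 8.37 on arthritis 2 and at 2.45, -2.17 and 1.16 on triptolide 1 to 3, and was not well above background on arthritis 1 and 3 (-6.56 and -6.25). Ckm, the muscle creatine kinase that regenerates ATP, stood at 8.39 on arthritis 2 and at 2.96, -2.15 and 1.94 with triptolide, and was not well above background on arthritis 1 and 3 (-7.16 and -7.32). For both genes every triptolide array lay between arthritis 2 and the other 2 arthritis arrays. Mb, myoglobin, the oxygen store of oxidative fibres, stood at -1.35, 10.45 and -1.34 in arthritis and at 4.31, -1.53 and 4.70 with triptolide, nearly level on triptolide 1 and 3. Ttn stood at 6.85 on arthritis 2 and at 1.51, -3.97 and -0.17 with triptolide, and was not well above background on arthritis 1 and 3 (-5.17 and -5.39).

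The array holds 1 probe for 36 of the genes and more for 11. All 8 probes of Ttn placed arthritis 2 above triptolide 1 and triptolide 1 above triptolide 3, by 5.15 to 5.58 and by 1.01 to 1.69 on the log2 scale. Of the 69 probes 68 were highest on arthritis 2. The exception was 1 of the 4 probes of Ldb3, a Z-disc protein, which was not well above background on any array and lies on the strand opposite to the brightest Ldb3 probe. Another Ldb3 probe on that opposite strand was highest on arthritis 2, at -2.10, and was well above background there alone. For Cacna1s, the voltage sensor of the muscle membrane, the brighter probe stood at 5.72 on arthritis 2, -0.54 on triptolide 1 and -1.06 on triptolide 3, whereas a dimmer one stood at -0.94, -4.13 and -4.30 and at -3.25 and -3.91 on arthritis 1 and 3, so that the probes disagree on the place of the triptolide arrays. The 2 probes of Myh3 disagree on the order of triptolide 1 and 3, the brighter one at -3.31 and -1.67 and the dimmer one at -3.41 and -4.13, so its place among the 13 genes towards triptolide 3 rests on the brighter probe.

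Regulators of muscle formation were highest on arthritis 2 too. Myod1, the transcription factor that sets the muscle fate, stood at 3.42 on arthritis 2 and -3.66 on triptolide 3, was not well above background on the other 4 arrays, and was not tested. Myog, myogenin, which drives myoblasts to differentiate, stood at -3.68, 0.91 and -3.43 in arthritis and at -2.73, -3.46 and -3.28 with triptolide. Apart from arthritis 2, the arrays of both groups lay within 1 narrow range for Myog. Of 8 genes of muscle stem cells and regeneration on the array, 7 were highest on arthritis 2, Myod1, Myog and Myh3 among them. Myh8, the perinatal myosin heavy chain, stood at 2.07 there and was not well above background on the other 5 arrays.

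Promoters are shown for 3 members, skeletal actin, creatine kinase and slow myosin, which spanned wide differences between arrays. Whether promoter sequence bears on those differences was not tested. RefSeq gave a promoter for 39 of the 47 genes. Each run holds the 250 bases before the gene's start on build GRCr8, read in the gene's direction. Capitals mark matches to the E-box CAGCTG, a site form bound by MyoD and myogenin, and to the CArG box, the site of serum response factor. Both strands were searched, and no match overlapped another.
Acta1, chr19:68784195-68784444, minus strand: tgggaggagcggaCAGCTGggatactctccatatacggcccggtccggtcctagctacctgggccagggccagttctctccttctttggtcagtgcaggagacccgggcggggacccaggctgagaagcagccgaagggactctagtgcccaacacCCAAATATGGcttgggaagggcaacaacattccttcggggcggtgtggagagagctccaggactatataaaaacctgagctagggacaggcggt
Ckm, chr1:88189211-88189460, plus strand: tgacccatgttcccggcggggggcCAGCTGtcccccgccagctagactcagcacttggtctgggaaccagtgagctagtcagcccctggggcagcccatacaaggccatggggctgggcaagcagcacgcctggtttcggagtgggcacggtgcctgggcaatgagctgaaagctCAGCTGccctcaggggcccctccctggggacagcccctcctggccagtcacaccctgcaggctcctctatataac
Myh7, chr15:32438195-32438444, minus strand: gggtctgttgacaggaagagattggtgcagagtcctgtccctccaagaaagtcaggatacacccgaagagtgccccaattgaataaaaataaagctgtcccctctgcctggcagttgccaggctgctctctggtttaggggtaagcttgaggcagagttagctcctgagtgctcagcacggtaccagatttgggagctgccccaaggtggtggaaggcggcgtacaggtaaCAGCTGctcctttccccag

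The E-box CAGCTG was found in 14 of the 39 promoters (35.9%), among them Acta1, Ckm, Myh7, Atp2a1 and Cav3, against 11.97% of the 33469 rat promoters in the same table. A MEF2 site, bound by the MEF2 partners of MyoD, was found in 8 of the 39 (20.5%) against 3.0% of all, and a CArG box in 4 (10.3%) against 1.5%. These are matches of letters in a window and not measured sites, and they carry no test.

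The comparison of triptolide with arthritis was made on the whole array. By limma 0 of 25777 probes passed an adjusted p under 0.05 (0%), the lowest adjusted p being 0.344, and 835 probes had an unadjusted p under 0.05 (3.24%). Of the 47 genes 44 passed the filter of being well above background on at least 3 of 6 arrays and were tested; Myh4, Myod1 and Mybpc2, the fast myosin-binding protein C, did not. None of the 44 passed the adjusted threshold, 0 had an unadjusted p under 0.05, and their adjusted p ranged from 0.994 to 0.999.

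The 44 tested genes had 15 higher and 29 lower values with triptolide, where 53.9% of all probes were higher. Their median difference was -0.50 on the log2 scale, against 0.023 over all tested probes. Differences ran from -2.53 for Pvalb to 3.20 for Myh7. The standard errors ran from 0.38 to 4.71 with a median of 2.98, against 0.23 over all probes. The residual SD had a median of 4.57 against 0.283 over all probes, and 38 of the 44 genes lay above the 99th percentile of all probes (2.00). Between the highest and the lowest array the members differed by 1.91 to 16.19 on the log2 scale (median 10.9), against a median of 0.762 over all probes.

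For 1 of the 44 tested genes every triptolide array was below every arthritis array. This is near the share of all probes, 3.87%, and is no trait of these genes. For 0 genes were they all above (4.77% of all probes). That 0 was fixed in advance, since arthritis 2 was the highest array for all 47 genes. The 1 gene was Jph1, junctophilin, which ties the sarcoplasmic reticulum to the membrane. It stood at -1.32, -0.13 and -1.47 in arthritis and at -1.55, -2.05 and -1.84 with triptolide, a difference of -0.84 (SE 0.38; adjusted p = 0.994 by limma).

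**Figure D4:**
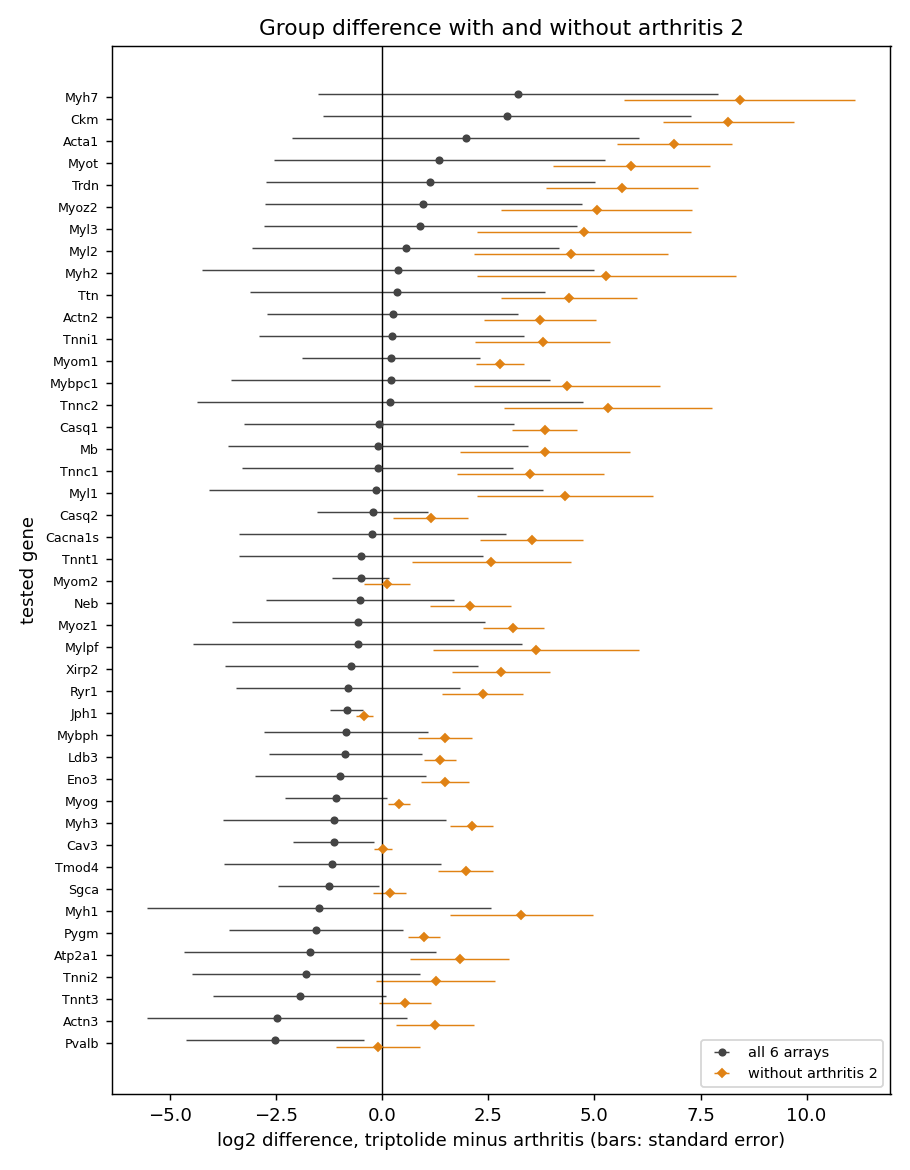
Log2 difference, triptolide minus arthritis (horizontal axis), of the 44 tested genes with all 6 arrays (dark circles) and without arthritis 2 (orange diamonds); bars are standard errors from limma. With all arrays the values scatter about 0 with bars up to 4.71, and without arthritis 2 all but Pvalb and Jph1 lie above 0.

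The direction of the comparison rested on arthritis 2. Without that array 42 of the 44 genes were higher with triptolide (45.7% of all probes), with a median difference of 2.95 against -0.022 over all probes. The exceptions were Pvalb and Jph1, at -0.10 (SE 0.99) and -0.42 (SE 0.20). An unadjusted p under 0.05 was then reached by 16 of the 44 (3.35% of all probes) and the adjusted threshold by 0. The differences were 8.42 (SE 2.72) for Myh7, 8.15 (SE 1.55) for Ckm and 6.89 (SE 1.37) for Acta1, on probes not well above background on either remaining arthritis array, and 0.53 (SE 0.61) for Tnnt3. The array was left out because it stands apart in the same genes, so these values describe the dependence and are not a second test. With slide as a block, which leaves triptolide 1 as the 1 treated array set against its own slide, the median difference was 0.58. Without triptolide 2 it was 0.42, and without any other single array but arthritis 2 it lay between -1.95 and -0.82.

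Every triptolide array was above both arthritis 1 and arthritis 3 for 26 of the 44 tested genes (7.26% of all probes). Of the 26, 16 were well above background on every triptolide array, and the other 10 rest in part on the order of values that were not. Array by array, 40 of the 44 were above both on triptolide 1 (35.5% of all probes), 29 on triptolide 2 (36.9%) and 39 on triptolide 3 (37.5%). Arthritis 2 was left out here too because it stands apart in these genes. Genes not well above background on arthritis 1 and 3 passed the filter only through the other arrays, triptolide arrays among them. These counts are therefore partly built in and are not a test. The 16 held the slow members Myh7, Tnni1 and Tnnc1, the shared genes Acta1, Ckm, Ttn and Neb, and 1 fast member, Actn3. The level of Actn3 on triptolide 2 (-2.15) was all but equal to that on arthritis 3 (-2.16). Margins on triptolide 2 were narrow as well for Neb (-1.54 against -1.65 on arthritis 3) and Tnnc1 (-1.81 against -2.003 on arthritis 3). The same held for Pygm (-2.01 against -2.14 on arthritis 1).

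Muscle genes outside the 47 were mostly highest on arthritis 2 as well. Of 53 further genes of the muscle cell 45 were on the array and 38 were tested. Of the 45, 40 were highest on arthritis 2. None of the 38 passed the adjusted threshold and 0 had an unadjusted p under 0.05 by limma, with 12 higher and 26 lower and a median of -0.53. Of those with the smallest unadjusted p-values by limma, 3 are given with the log2 difference in parentheses. They were Chrne, the adult epsilon subunit of the muscle acetylcholine receptor (-1.48), Atp2a2, the calcium pump of slow fibres, heart and many other cells (0.26), and Art1, a membrane ADP-ribosyltransferase of muscle (-0.83). Atp2a2 was not among those highest on arthritis 2, at 4.75 there and 5.23 to 5.42 on the others. Of the 45, 30 were higher on triptolide 1 than on triptolide 3. Chosen after their values were seen, Ankrd2, a stretch-responsive protein of slow fibres, stood at 0.64 on triptolide 1 and -3.85 on triptolide 3, and Ckmt2, the mitochondrial creatine kinase of muscle, at 2.90 and 0.70, while Csrp3, a Z-disc protein of slow fibres and heart, lay the other way, at 0.36 and 1.73.

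Markers of other cells differed between the same arrays. Averaged after centring each gene on its own mean, 10 synovial fibroblast markers stood at 0.24, -0.56 and 0.38 on arthritis 1 to 3 and at 0.22, -0.46 and 0.18 on triptolide 1 to 3. The 8 macrophage markers stood at 0.03, -0.41 and 0.21 and at 0.18, -0.42 and 0.42. Both were lowest on arthritis 2, the array highest in muscle genes, and on triptolide 2. Of 8 smooth muscle markers 7 were on the array and stood at -0.49, 0.42 and -0.11 in arthritis and at -0.70, 2.01 and -1.13 with triptolide. Without Des, which muscle fibres express too, arthritis 2 stood at -0.02 and triptolide 2 at 2.27. The 8 nerve and Schwann cell markers stood at 0.02, -0.48 and 0.22 and at -1.04, 2.55 and -1.27. Triptolide 2 was the array richest in smooth muscle and nerve genes. On it Casq2, a calsequestrin of slow fibres and heart, stood at -0.37 against 0.90 on arthritis 2, and Myom2 at -2.78 against -2.09. The part of tissue makeup in the differences of the muscle genes between the arrays was not tested.

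**Figure D5:**
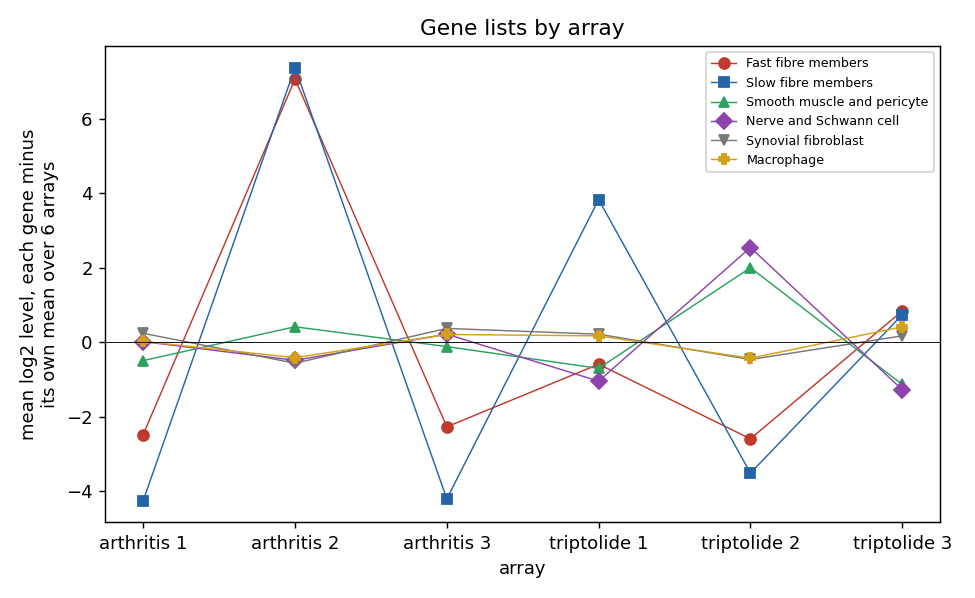
Mean log2 level of 6 gene lists on each array (vertical axis, each gene first set to 0 at its own mean over the 6 arrays); lines join the arrays for reading only. The fast and slow fibre lists peak on arthritis 2 and part on triptolide 1, where the slow list stands at 3.83 and the fast list at -0.59, while smooth muscle and nerve lists peak on triptolide 2.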

How the data were processed

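RNA of 6 synovial samples was hybridised to 1-colour rat arrays (Cy3, per the labels). The deposited scanner files hold spot intensity, background-subtracted within each array and not normalized between arrays, written by Agilent Feature Extraction 10.7.3.1 per the file headers (9.1 per the submitters' processing notes). A deposited table of log2 values holds 1 probe of these genes and was not used for any result. Control and outlier-flagged spots were left out, each array's log2 75th percentile was subtracted, and spots of a probe were averaged. Probes well above background on at least 3 of 6 arrays were tested with limma 3.58.1 in R 4.3.3 (lmFit, eBayes, triptolide minus arthritis, Benjamini-Hochberg adjustment over all tested probes). A gene is represented by its tested probe of highest mean, and the code was tested on simulated data. The members and gene lists were chosen with earlier results of these data known. Named genes are the fast and slow members, Myh1, Myh2, Myh3, Acta1, Ckm, Ttn, Mb, Myod1 and Myog, members of the largest or smallest difference, and up to 4 of the further muscle genes by smallest p (1 of them is not reported here); any other was named after its values were seen. Myl1 has 2 promoters in the RefSeq table, of which the first was searched. Alternatives were other scalings, backgrounds and filters, slide and replicate blocks, array weights and leaving out each array.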

Additional observations from a re-analysis of the deposited data

How the results depend on the processing

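Under every alternative run, 0 of the 44 genes and 0 probes passed the adjusted threshold. The median difference of the members was -0.50 with all arrays, -0.96 with normexp and -0.93 with probes measured on all 6 arrays. It was 0.58 with slide as a block or on slide 1 only. With array weights it was 3.25, the weights being 0.23 for arthritis 2, 0.28 for triptolide 2 and 1.00 to 2.61 for the others. It ranged from -1.95 to 2.95 with an array left out (2.95 without arthritis 2, 0.42 without triptolide 2). The fast minus slow difference was -2.27 with all arrays, -5.55 on slide 1 only, -1.34 with normexp and -1.35 with normexp and quantile normalization, and ranged from -3.29 to -0.62 with an array left out. Members at an unadjusted p under 0.05 numbered 0 with all arrays, 20 with array weights, 16 without arthritis 2 and 1 without arthritis 3. Over all probes that count was 835 with all arrays, 1253 with normexp and quantile normalization, 1758 without a filter, 1297 on slide 1, 2591 with array weights and 1657 without triptolide 2. No pairing by replicate number was seen (r of -0.17, -0.13 and 0.00 between same-numbered deviations, and -0.10 to 0.16 between the others). With 3 arrays per group these values cannot exclude pairing. A replicate block left the median at -0.50, with 1066 probes and 1 member at an unadjusted p under 0.05 and 0 called. No quantile or median scaling turned a named gene.
Signs turned as follows. With normexp: Tnnc2 -1.03, Tnni1 -0.50, Myl2 -0.64, Myl3 -0.17, Myh2 -0.66, Acta1 -0.43 and Ttn -0.94. With normexp and quantile: Tnnc2 -0.98, Tnni1 -0.47, Myl2 -0.52, Myl3 -0.066, Myh2 -0.61, Acta1 -0.37 and Ttn -0.86. With slide as a block or slide 1 only: Tnnt1 2.59, Tnnc1 2.58 and Mb 1.72. With array weights: Tnnt3 0.83, Tnni2 2.34, Atp2a1 2.51, Actn3 1.71, Pvalb 0.50, Tnnt1 2.92, Tnnc1 3.85, Myh1 4.41, Myh3 2.13, Mb 4.96 and Myog 0.21. With all probes averaged Ttn was -0.075. With an array left out the ranges that cross 0 were -2.77 to 5.32 for Tnnc2, -1.85 to 3.78 for Tnni1, -1.41 to 4.44 for Myl2, -1.33 to 4.76 for Myl3, -2.59 to 5.28 for Myh2, -0.58 to 6.89 for Acta1, -1.72 to 4.40 for Ttn, -3.21 to 0.53 for Tnnt3, -3.36 to 1.26 for Tnni2, -3.49 to 1.82 for Atp2a1, -4.37 to 1.25 for Actn3, -2.16 to 2.57 for Tnnt1, -1.92 to 3.49 for Tnnc1, -4.12 to 3.28 for Myh1, -2.78 to 2.11 for Myh3, -2.07 to 3.84 for Mb and -1.90 to 0.40 for Myog. The cause was not tested. The deposited table could not serve as an alternative, since it holds no tested probe of these genes. Where a probe was not well above background, its value is limited by background and not by the sample.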
